A study of Mus musculus with 50 samples.

Results

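Of the 224328 stretches of open chromatin called in replicate 1 of mouse stem cell-derived motor neurons after 28 days in culture (DIV28), 35072 (15.6%) were found again in replicate 2 and lay on no peak of any in vivo age, from E10.5 to 2 years. These culture-only regions, also called members here, are ATAC-seq peaks of DIV28 replicate 1 with a −log10 q of at least 2 that shared at least 1 bp with a peak of DIV28 replicate 2 and with no peak of the 14 in vivo libraries. Of the 224328 intervals, 206288 passed the q limit and 132256 of these were also on a replicate 2 peak, so that members made up 26.5% of the reproducible regions. The other 97184 reproducible regions were on at least 1 in vivo peak and served for comparison, and 13535 of 83108 reproducible P56 regions that were on no peak of the 8 culture libraries served as the in vivo counterpart. The members were thus selected on the DIV28 peak calls and q values and on the absence of in vivo peaks, so these are given as a description, while DIV0, DIV7, tetrodotoxin, sequence, position and RNA were not used by the choice.

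The study followed gene expression and open chromatin of spinal motor neurons in the animal and in a stem cell-derived culture, with 2 ATAC-seq libraries per age or condition and 27 RNA-seq libraries whose group the labels gave. At E10.5, whole GFP-positive cells were sorted from spinal cords of C57BL/6 embryos with the HB9-GFP transgene. From E13.5 through P4, P13, P21, P56 and 2 years, nuclei were isolated from pooled C57BL/6 spinal cords of the strain Chat-Cre;SUN1-GFP-3xMYC, in which Cre from the Chat gene turns on a nuclear envelope tag. The culture groups were motor neurons differentiated from a single embryonic stem cell line of the same genotype. DIV0 nuclei came from the embryoid bodies before plating, and DIV7 and DIV28 nuclei from co-culture on glia enriched for astrocytes from P2 cortex, in medium with GDNF, BDNF, CNTF and IGF. For DIV28 TTX, 1 uM tetrodotoxin, which blocks the sodium channels that carry action potentials, was present for all 28 days. Chat-Cre also marks cholinergic neurons other than motor neurons, and the HB9-GFP sort differs from the later isolation in both marker and material. The number of reads behind each peak list is unknown, and lists ranged from 80386 to 189868 peaks in vivo, with 94520 and 80818 at DIV0, 95519 and 122751 at DIV7, 224328 and 152667 at DIV28 and 217773 and 165926 at DIV28 TTX. The DIV28 and DIV28 TTX lists of replicate 1 were thus longer than every in vivo list, and a region absent from a list may still have been open below the limit of that library.

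ATAC-seq marks DNA that is free of nucleosomes, because a transposase inserts sequencing adapters there. Open regions away from promoters are often enhancers, which transcription factors open and on which they act together to set the transcription of nearby genes. AP-1 is a family of paired basic leucine zipper proteins, made of Jun and Fos members and their relatives, that binds a short palindrome and is induced in neurons by activity, stress, growth factors and axon injury.

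The strongest members of 3 timing classes, by the −log10 p of DIV28 replicate 1, are shown as sequence, since the letters around the summit, the point of highest signal, carry much of what follows. They are stretches of the forward strand of mm10 (GRCm38) centred on the summit, in lower case, with the AP-1 letters TGANTCA (either strand) in capitals. The first set holds the 3 highest members that had no DIV0 peak and were on both DIV7 lists. The Nek7 region lay in an intron of Nek7, a kinase of the NIMA family, 12.6 kb from its start and held 1 match.
Nek7 region, chr1:138606985-138607105: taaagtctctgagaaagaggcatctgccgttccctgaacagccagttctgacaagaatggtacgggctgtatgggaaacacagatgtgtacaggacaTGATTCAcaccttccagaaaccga
Prl2c5 region, chr13:13163192-13163312: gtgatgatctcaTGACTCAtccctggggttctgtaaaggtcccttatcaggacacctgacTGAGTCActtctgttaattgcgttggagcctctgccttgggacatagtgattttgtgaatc
Clca3a2 region, chr3:144822043-144822163: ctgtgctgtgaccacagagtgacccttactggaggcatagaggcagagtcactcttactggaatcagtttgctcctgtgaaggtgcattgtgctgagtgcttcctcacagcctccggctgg
The Prl2c5 region was intergenic, 19.5 kb from the start of a prolactin family gene, and held 2 matches, while the Clca3a2 region was intergenic, 2.61 kb from the start of a chloride channel regulator gene, and held none.

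The second set holds the 3 highest members with peaks at DIV28 and none at DIV0 or DIV7. The Fam217a region lay inside that gene, 1.26 kb from a start, and held 1 AP-1 match, and the other members of this set have no capitals because they held none.
Tmem123 region, chr9:7749646-7749766: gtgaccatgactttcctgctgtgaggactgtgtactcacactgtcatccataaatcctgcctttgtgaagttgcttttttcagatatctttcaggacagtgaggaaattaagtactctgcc
Prdm1 region, chr10:44518792-44518912: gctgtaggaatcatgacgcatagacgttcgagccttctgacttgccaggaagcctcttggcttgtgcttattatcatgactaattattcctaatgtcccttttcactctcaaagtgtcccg
Fam217a region, chr13:34918193-34918313: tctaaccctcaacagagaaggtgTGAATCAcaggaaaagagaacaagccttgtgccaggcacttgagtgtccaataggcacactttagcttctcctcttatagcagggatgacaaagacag
The Tmem123 region was intergenic, 14.3 kb from a start, and the Prdm1 region lay in an intron of Prdm1, a zinc finger repressor, 60.1 kb from the nearest start of that gene. A last region is the highest of the rare class that was already on all DIV0 and DIV7 lists. It was intergenic, 127 kb from the start of 5730507C01Rik on chromosome 12, and held no match.
5730507C01Rik region, chr12:18387326-18387446: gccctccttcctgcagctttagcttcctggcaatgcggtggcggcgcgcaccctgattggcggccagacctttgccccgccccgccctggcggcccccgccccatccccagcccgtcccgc
Within 100 bp of the summit, 6 of the 10 highest members held AP-1 letters. By class, 3 of the 4 highest present from DIV7, 2 of the 4 highest of DIV28 alone and 1 of the 4 highest on all DIV0 and DIV7 lists did, the last being a region 29.9 kb from the start of Kdm6b, a histone H3 lysine 27 demethylase.

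Fold enrichment, the ratio of the signal at the summit to the local background of the same library, was 7.83 and 10.8 for the Nek7 region at DIV7, 16.4 and 11.2 at DIV28 and 15.9 and 10.515 at DIV28 TTX. For the Prl2c5 region it was 5.63 and 6.60 at DIV7, 25.1 and 15.1 at DIV28 and 19.1 and 7.14 at DIV28 TTX. For the Clca3a2 region it was 9.17 and 12.8 at DIV7, 14.5 and 9.78 at DIV28 and 14.1 and 9.54 at DIV28 TTX. The Clca3a2 region was thus lower at DIV28 than at DIV7 in replicate 2, while both other regions were higher at DIV28 in both replicates. The Tmem123 region, without a peak before DIV28, had 24.0 and 9.74 at DIV28 and 17.9 and 9.27 with TTX. The Prdm1 region had 21.03 and 12.6 at DIV28 and 13.6 and 6.34 with TTX, and the Fam217a region 17.7 and 11.2 at DIV28 and 10.4 and 7.86 with TTX. The 5730507C01Rik region had 14.6 and 12.3 at DIV0, 8.27 and 11.6 at DIV7, 12.6 and 8.56 at DIV28 and 12.1 and 10.1 with TTX. In all of these, replicate 1 was above replicate 2 at DIV28.

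As chosen, members were smaller peaks than the comparison regions. Their median fold enrichment in DIV28 replicate 1 was 6.29, against 7.39 for the comparison regions, their median −log10 q 19.1 against 29.2 and their median length 432 bp against 622 bp. The median member lay 1873 bp from the nearest in vivo peak, 31.4% lay within 1000 bp of one and 90.6% within 10000 bp. The member nearest to the limit on −log10 q stood at 2.00233 and the nearest interval outside at 1.99871, and 1161 intervals that met the other conditions were below the limit.

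The culture-only regions seldom had a peak in the embryoid body, and more of them had one at DIV7 and with TTX. Of the members, 2.04% and 1.503% were on a peak of the DIV0 libraries, 22.3% and 32.2% on a peak of the DIV7 libraries, and 83.3% and 63.0% on a peak of the DIV28 TTX libraries. Among comparison regions the shares were 42.5% and 39.3% at DIV0, 54.6% and 62.4% at DIV7 and 95.1% and 85.1% with TTX. In each library the share of members was below that of comparison regions. The choice put every comparison region and no member on an in vivo peak, so this order can come from the choice. No test was made, since both sets were read from the same libraries, and longer lists cover more of any set.

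**Figure D1:**
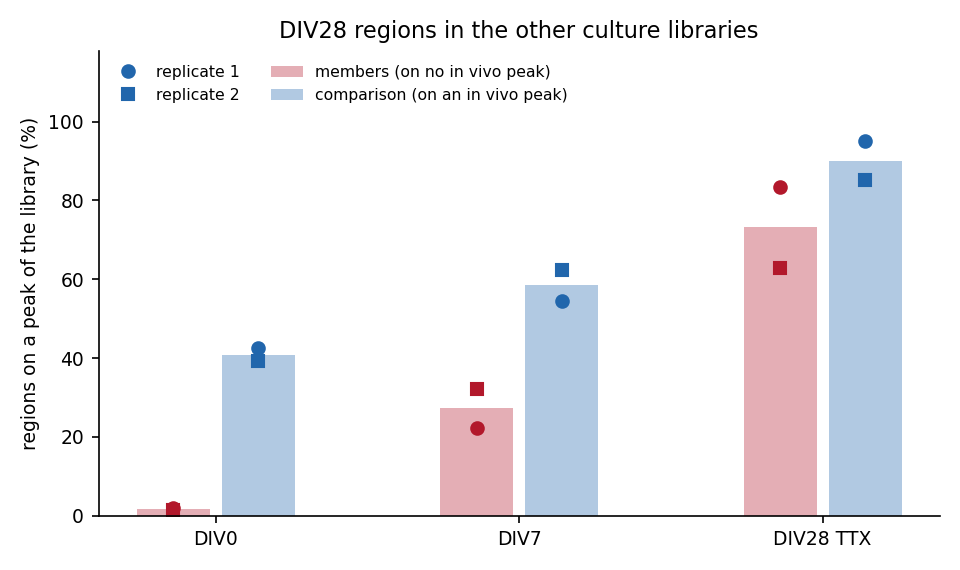
Share of DIV28 regions (y axis, percent) on a peak of each DIV0, DIV7 and DIV28 TTX library, for members (red) and comparison regions (blue). Points are single libraries and bars the mean of 2; members go from at most 2.04% at DIV0 to at least 63.0% with TTX.

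By timing, 21158 members (60.3%) had a peak in no DIV0 or DIV7 library, 5337 (15.2%) had none at DIV0 and were on both DIV7 lists, and 120 (0.342%) were on all DIV0 and DIV7 lists. The remaining 8457 (24.1%) were on some lists only. Among comparison regions, 26.0% had peaks at DIV28 alone, 15.2% from DIV7 and 29.1% on all DIV0 and DIV7 lists. Members present from DIV7 were the larger peaks, with a median fold enrichment at DIV28 of 8.69 against 5.73 for those of DIV28 alone.

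With TTX, 20787 members (59.3%) had a peak in both libraries and 4550 (12.97%) had one in neither, against 83.5% and 3.33% of comparison regions. The choice itself put 100% of both sets on the untreated DIV28 lists. A lower share with TTX, or a lower ratio to untreated DIV28, can therefore come from the choice and is not a measure of loss. The class present from DIV7 was on both TTX lists in 87.1% of cases, and the class of DIV28 alone in 48.2%. The difference from the comparison regions was smaller among larger peaks. Among regions with a −log10 q of 2 to 5, 59.4% and 45.2% of members were on a peak of the TTX libraries, against 78.8% and 60.5% of comparison regions. Among regions of 50 and over, the shares were 99.3% and 89.9% for members and 99.9% and 98.4% for comparison regions. Members made up 33.7% of reproducible regions in the lowest of these classes and 15.0% in the highest.

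Among members with a peak in both libraries of the same number, the median log2 ratio of fold enrichment, TTX over untreated, was −0.25 in replicate 1 (29219 regions) and −0.15 in replicate 2 (22090 regions). The comparison regions had medians of −0.08 and −0.01. Between the untreated replicates themselves, replicate 2 over replicate 1, the median was −0.49 for members and −0.44 for comparison regions. Between the TTX libraries the same medians were −0.49 and −0.40, so replicate 2 was lower by a similar amount in both conditions. The TTX ratios compare libraries of the same number, so this difference does not measure their spread. Members with AP-1 letters had TTX ratios of −0.32 and −0.23, and members without had −0.12 and −0.00, in the same order in both replicates. Since AP-1 members also had the lower ratio between untreated replicates, −0.54 against −0.42, and these ratios were not tested across libraries, the part of TTX in this order was not tested.

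AP-1 letters were the most frequent of the 25 motifs searched at the summits of culture-only regions. Within 100 bp of the summit, 22064 of 35072 members (62.9%) held TGANTCA on either strand, against 34.9% of comparison regions and 4.77% of the P56 regions on no culture peak. Windows of the same length 1000 bp to either side of the same summits held the letters in 6.52% of cases for members, 5.82% for comparison regions and 6.15% for the P56 regions. The letters were thus 9.65 times as frequent at the member summits as in their flanks, and no more frequent at the P56 summits than in theirs. The P56 regions were weaker peaks, with a median −log10 q of 3.96 in P56 replicate 1, against 19.1 for members in DIV28 replicate 1. They were also chosen for having no culture peak, so their motif shares are not those of P56 regions at large. At least 2 matches stood in 3588 members (10.2%), against 4.72% of comparison regions and 0.0591% of P56 regions, and at least 3 stood in 249 members.

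The classical forms TGACTCA or TGAGTCA were present in 51.6% of members, 27.8% of comparison regions and 2.38% of P56 regions. The forms with A or T at the centre, TGAATCA or TGATTCA, were present in 15.8%, 9.01% and 2.41%. The nearest match lay a median of 25 bp from the summit in members with a match and 42.3% lay within 20 bp, against 27 bp and 39.1% in comparison regions and 48 bp and 22.2% in P56 regions.

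**Figure D2:**
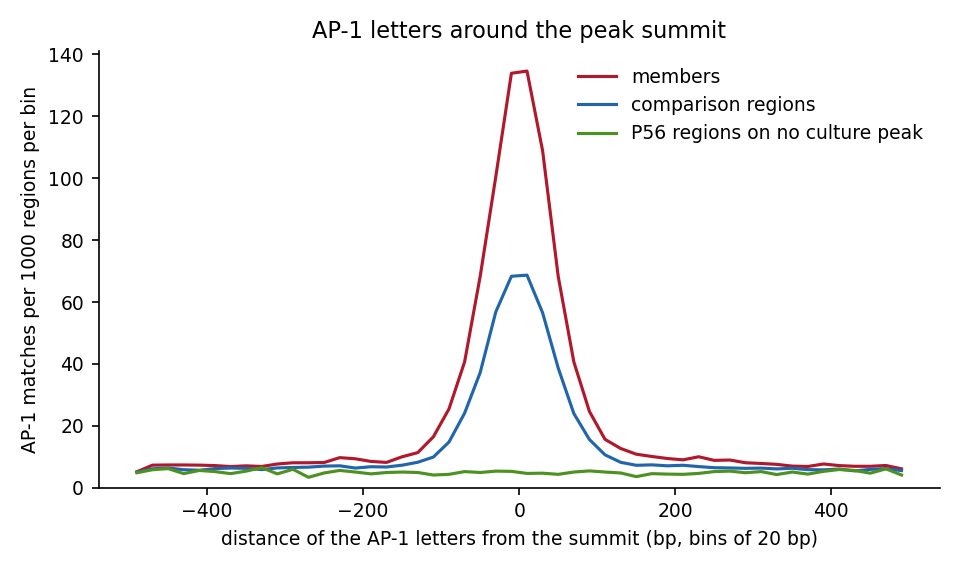
AP-1 matches per 1000 regions (y axis) in bins of 20 bp by distance from the peak summit (x axis, bp), for members, comparison regions and P56 regions on no culture peak. Members reach 134 and 135 matches in the bins beside the summit and comparison regions 68.3 and 68.7, while the P56 line stays near 5.

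The share with AP-1 letters was higher in stronger peaks and higher in members at every strength. Among regions with a −log10 q of 2 to 5 it was 41.5% in members and 18.5% in comparison regions, and among those of 50 and over 77.3% and 40.2%. Away from promoters, 63.3% of distal members and 40.4% of distal comparison regions held the letters. By timing, the letters stood in 71.1% of members present from DIV7, in 60.5% of those of DIV28 alone and in 45.8% of the 120 present from DIV0. Comparison regions of the same timing held them in 60.4%, 41.8% and 13.9% of cases, so that the sets were closer than over all regions in both later classes and not in the class present from DIV0. Of members on both TTX lists 61.8% held the letters, and of those on neither 63.2%. These shares are not matched for strength, and members with the letters had a median −log10 q of 22.8, against 13.8 without. Whether members with the letters lost more peaks with TTX at the same strength was not tested.

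Members with AP-1 letters had a median fold enrichment of 6.84, members without 5.21 and members with at least 2 matches 8.51. They were also less often open at DIV0, in 1.40% and 1.01% of cases against 3.14% and 2.34% without, and more often open at DIV7, in 23.7% and 35.4% against 20.02% and 26.7%. For the TTX libraries the order of both groups differed between replicates, at 83.8% and 61.5% with the letters and 82.5% and 65.6% without.

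**Figure D3:**
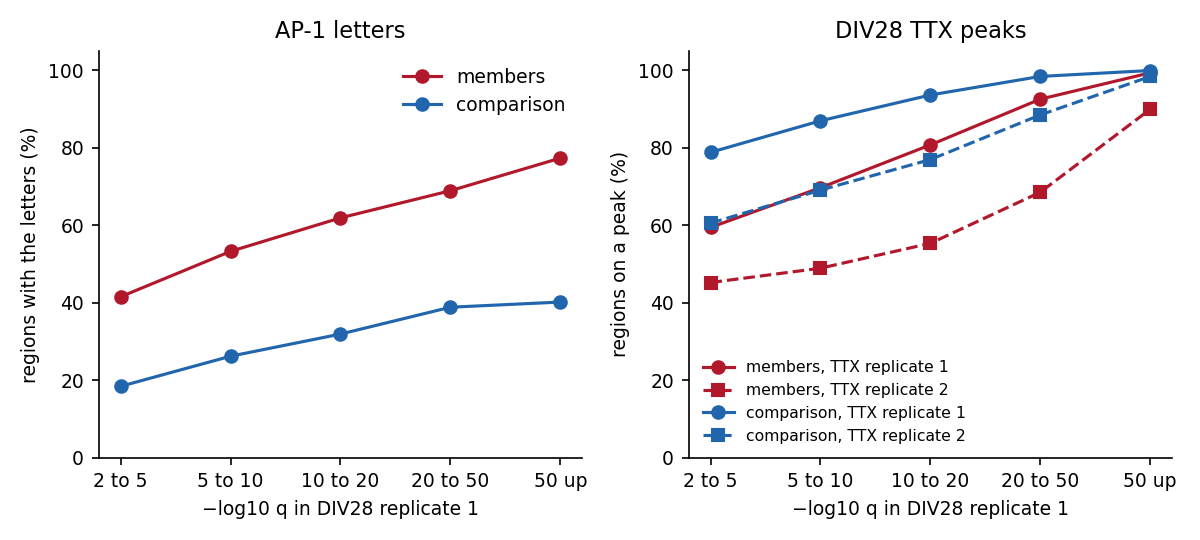
Left, share of regions with AP-1 letters (y axis, percent) by class of −log10 q in DIV28 replicate 1 (x axis), for members and comparison regions. Right, share on a peak of each DIV28 TTX library; members are above for AP-1 letters in every class (41.5% to 77.3%) and reach 99.3% and 89.9% on the TTX lists in the highest class.

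Other motifs were searched in the same windows and on both strands. Letters of STAT factors, the effectors of cytokine receptors, TTCCNGGAA, were present in 2.38% of members against 0.567% of their flanks, 1.44% of comparison regions and 0.399% of P56 regions. They were more frequent in members present from DIV7 (4.55%) than in those of DIV28 alone (1.74%), and in members without AP-1 letters (3.47%) than with them (1.74%). Letters of RUNX factors, TGTGGTT, stood in 9.75% of members, 4.73% of flanks, 5.57% of comparison regions and 3.13% of P56 regions, and again more often without AP-1 letters (12.3%) than with them (8.26%). The MARE, the longer element of Maf and Bach proteins, which contains the AP-1 letters and so is no separate observation, was present in 3.52% of members and 0.268% of flanks.

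The CRE, TGACGTCA, was rare, in 0.393% of members, 0.125% of flanks, 1.01% of comparison regions and 0.214% of P56 regions, and so were the ETS letters ACCGGAAG, in 0.257%, 0.164%, 0.772% and 0.111%. Several other letters were near their flank level or less frequent than in P56 regions. TTGGCA, one arm of an NFI site, was in 11.8% of members, 10.02% of flanks and 19.8% of P56 regions, and the E-box form CAGATG in 19.5%, 15.1% and 27.2%. The glucocorticoid response element was in 3.04% of members, 2.79% of flanks and 5.96% of P56 regions. The homeodomain letters TAATTA were in 3.90% of members, below the 6.90% of their flanks, and in 6.22% of P56 regions. The CTCF letters stood in 1.21% of members and 1.20% of flanks, against 5.64% of comparison regions. A match is a description of letters and not a bound site.

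**Figure D4:**
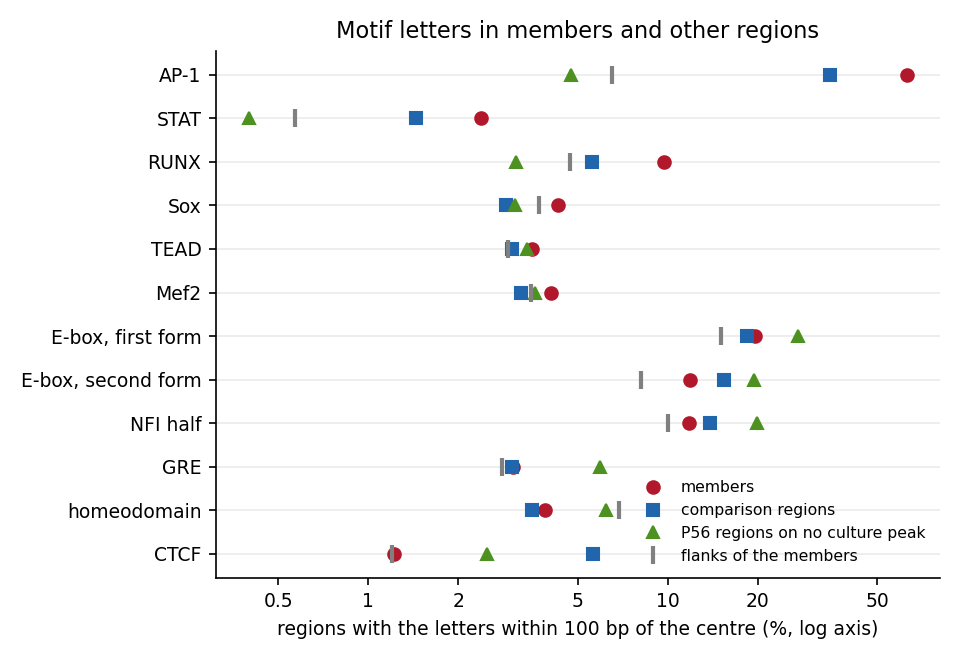
Share of regions with the letters of 12 motifs within 100 bp of the summit (x axis, percent, log scale), for members, comparison regions, P56 regions on no culture peak and the flanks of the members. In members AP-1 (62.9%), STAT (2.38%) and RUNX (9.75%) stand to the right of the flanks and CTCF (1.21%) on its flank level.

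Culture-only regions were mostly distal. Of the members, 94.9% had their summit over 2000 bp from a transcription start site of GENCODE vM21, against 81.5% of comparison regions and 96.2% of the P56 regions. Of members, 49.3% were intergenic, 43.1% intronic, 2.57% in exons and 5.07% at start sites, against 30.8%, 47.5%, 3.21% and 18.5% of comparison regions. The median distance to a start was 30239 bp for members, 20924.5 bp for comparison regions and 45167 bp for P56 regions. Their 200 bp windows were poorer in GC, at a mean of 44.4% against 50.4% in comparison regions and 46.7% in P56 regions. Repeats filled 13.98% of the bases in members and 8.54% in comparison regions, and CpG stood at 1.72 per window against 4.83.

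Members were spread over all chromosomes, with 22.9% of the reproducible regions of chromosome 11 and 29.9% of those of chromosome 13 as the range of the autosomes and 35.8% on chromosome X. A stretch of 6 Mb on chromosome 12, from 18 to 24 Mb, differed from the rest, with 189 members against 89 comparison regions, so that members made up 68.0% of its reproducible regions. That stretch held 694 and 317 peaks at DIV28 and 732 and 399 with TTX, against 95 and 97 at DIV0, 186 and 107 at DIV7 and 65 to 109 in the in vivo lists. Its members held AP-1 letters in 55.6% of cases, against 63.0% of the other members. Gm10330 (46 members), Gm21863 (42), 5730507C01Rik (35) and Zfp386 (29) were among the 20 genes with the most members, with 78.0% to 85.4% members. How many of their members lay in this stretch was not counted, but the printed 5730507C01Rik region lay in it. Copies of similar sequence in the stretch may share reads.

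By nearest start site, 11309 genes had at least 1 member, 2118 at least 5 and 616 at least 10. Beside Gm10330, Gm21863, 5730507C01Rik and Zfp386, the gene with the most members was Chrm3, the muscarinic acetylcholine receptor M3, with 42 members and 35 comparison regions. Auts2, a neuronal chromatin regulator, had 40 and 71, and Nrxn3, a presynaptic adhesion protein, had 40 and 115. Next came Sox11, a transcription factor of immature and regenerating neurons, with 38 members and 45 comparison regions, Lpp, a focal adhesion protein, with 37 and 58, and Sdk1, a synaptic adhesion protein, with 33 and 53. AP-1 letters stood in 19 of the 42 members at Chrm3, 24 of 40 at Auts2, 25 of 40 at Nrxn3 and 23 of 38 at Sox11. The share of members among the regions of a gene was 54.5% at Chrm3, 36.0% at Auts2, 25.8% at Nrxn3 and 45.8% at Sox11, where all regions gave 26.5%.

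Gene lists differed in how many of their nearby regions were members. Genes of the axon injury response had 119 members and 231 comparison regions (34.0% members), with 38 at Sox11, 24 at Klf6, 12 at Gap43, 12 at Npy and 9 at Gadd45a. The AP-1 genes themselves had 28 and 129 (17.8%), with 7 at Fosl2, 5 at Jun and 5 at Bach2. Hox genes, which hold the position of a motor neuron along the cord, had 6 and 67 (8.22%). Motor neuron markers had 24 and 83 (22.4%), with 12 at Isl1 and 7 at Slc5a7, the choline transporter. Marker lists of other cell types had 39 members (27.5%) for astrocytes, of which 21 at Sox9, 37 (34.9%) for fibroblasts, 38 (41.8%) for endothelium, 22 (41.5%) for pluripotent cells, of which 16 at Sox2, 25 (30.5%) for neural progenitors, 36 (33.0%) for forebrain and midbrain, 7 (26.9%) for microglia and 9 (15.8%) for the oligodendrocyte lineage. Of the remaining lists, STAT and CNTF signalling had 32 members (24.4%), NFI 16 (22.9%), TEAD and YAP 31 (31.3%), activity-regulated genes 48 (30.8%), trophic factor receptors 54 (18.9%), Mef2 13 (25%) and steroid receptors 20 (29.0%).

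Markers of these cell types were checked in the RNA, which came from other preparations than the peaks. By the study's methods, nuclei for RNA-seq were bound to beads and those for ATAC-seq were sorted. In vivo, thoracic cord was added for ATAC-seq only. Summed over the 10 motor neuron markers, DIV28 libraries held 536 and 678 TPM (transcript abundance scaled for gene length and library size) and P21 libraries 343 to 490. Of these genes 3 were higher at DIV28 than at P21 and 1 was lower, by the limits stated below. The shares over all 15556 genes tested, for this and the other marker lists, were 14.5% higher and 13.6% lower. The filament genes Nefh and Prph had the most counts of the motor neuron list at DIV28, at 35632 and 28547 over both libraries. The astrocyte list summed to 24.5 and 25.8 TPM at DIV28 against 71.2 to 82.4 at P21. Of its 10 genes 1 was higher at DIV28 and 5 lower, with Gfap at 0.37 and 0.17 TPM, Aqp4 at 0.01 and 0.08 and Fgfr3 at 0 in both DIV28 libraries. The one that was higher was Sox9, a glial and progenitor factor with 21 of the members of the list, at 1.64 and 3.17 TPM against 1.13 to 1.80 at P21, by a log2 change of 1.58 (SE 0.25) and a call lost without DIV28 replicate 2. The fibroblast list summed to 87.4 and 61.1 TPM at DIV28 and 69.2 to 76.4 at P21, and 3.47 and 2.43 at DIV0. Thy1, which neurons also make, gave 70.5 and 44.3 TPM of the DIV28 sums, and Fn1 and Twist1 of the same list were higher at DIV28 than at P21, by log2 changes of 2.49 and 3.604. Of 8 endothelial markers 5 were at 0 in both DIV28 libraries, while Flt1, a VEGF receptor, was at 1.40 and 2.27 TPM against 0.26 to 0.50 at P21, higher by 3.31 (SE 0.41). Of 10 oligodendrocyte lineage markers 4 were at 0. Microglia markers summed to 3.97 and 5.36 TPM at DIV28 and 3.9 to 9.42 at P21, and the 1 that was tested was higher at DIV28. Pluripotent cell markers summed to 0.2 and 2.1 TPM at DIV28 and 2.41 to 4.48 at P21, with 1 of the 3 tested lower at DIV28. Neural progenitor markers summed to 46.2 and 41.3 TPM at DIV28, 87.6 and 58.5 at DIV0 and 4.4 to 6.85 at P21, with 3 of 10 higher than at P21 and most of the sum from Vim, at 43.7 and 38.5 TPM. Forebrain and midbrain markers, which spinal motor neurons should lack but cortical glia may carry, summed to 3.69 and 4.70 TPM at DIV28, 7.53 and 12.9 at DIV7, 0.21 and 0.96 at DIV0 and 0.22 to 0.66 at P21, and of the 3 tested Lhx6 and En1 were higher than at P21. Chat, the acetylcholine synthase, was at 13.1 and 10.2 TPM at DIV28 and 31.6 to 44.1 at P21, a difference that did not pass. In bulk libraries fewer cells of a type and less RNA per cell cannot be told apart, and the part of other cell types, including the glia of the co-culture, in the members was not tested.

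RNA at DIV28 (2 libraries) was compared with P21 (3 libraries), at which the animal motor neuron is near maturity, and with DIV0 (2). A gene counted as higher or lower when edgeR's quasi-likelihood test gave p below 0.001 before adjustment and the groups were 2-fold or more apart, and quoted adjusted p-values are Benjamini-Hochberg values over all genes of the fit. Against P21, 2254 of 15556 genes (14.5%) were higher at DIV28 and 2119 (13.6%) lower. Against DIV0, 1454 of 12992 (11.2%) were higher and 795 (6.12%) lower, 17.3% in either direction, and against P21 28.1% in either direction. Fold changes are on the log2 scale of TMM-scaled counts, on which the median gene moved by 0.02 between P21 and DIV28. In mean TPM the median log2 ratio of DIV28 over P21 was −0.83, so that TPM levels and fitted changes are on scales that differ. With library totals in place of TMM factors the median was −0.26, and 34.2% of calls were higher at DIV28 in place of 51.5%. Against DIV0 that share was 52.1% in place of 64.7%, with a median of −0.19 in place of 0.06. No named gene with a call reversed its direction under the scalings and fits run. Nothing in the labels says how separate the replicates were, and p-values measure the spread between these libraries.

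Of 12 AP-1 genes tested, 6 were higher at DIV28 than at P21 and none lower, with a median log2 change of 1.36 over the list. Jun, the main partner of Fos proteins, was at 60.8 and 82.4 TPM at DIV28, 6.27, 6.64 and 7.28 at P21, 26.4 and 14.6 at DIV0 and 53.1 and 64.1 at DIV7. Its groups at DIV28 and P21 did not overlap, and the log2 change was 4.23 (SE 0.28, edgeR adjusted p = 2.69e-10). In E10.5 cells Jun was at 48.5 to 100.6 TPM, so its DIV28 level was within the range of that age. The E10.5 libraries came from whole cells and the DIV28 libraries from nuclei, which this comparison of levels does not account for.

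Atf3, a partner of Jun induced by injury and stress, was at 17.6 and 85.9 TPM at DIV28 and at 0.16, 0.22 and 1.12 at P21. The DIV28 libraries differed by much from each other but lay above every in vivo library, of which the highest was at 6.89 (E13.5), and the log2 change against P21 was 7.33 (SE 0.54, edgeR adjusted p = 8.75e-10). Fosl2, a Fos family member, was at 5.28 and 7.71 TPM at DIV28, 11.4 and 7.34 at DIV7, 0.51 and 0.52 at DIV0 and 1.31, 1.60 and 2.19 at P21. It was higher by 2.90 against P21 (SE 0.23, edgeR adjusted p = 2.49e-09) and by 4.32 against DIV0 (SE 0.42, edgeR adjusted p = 3.06e-05).

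Junb, Jund and Bach1, a repressor related to AP-1, were also higher than at P21, by 2.01, 1.95 and 1.80. Without DIV28 replicate 1 the call of Jund was lost, at a log2 change of 1.23. Fos itself was at 1.28 and 2.83 TPM at DIV28 and 1.86, 1.90 and 2.26 at P21 and did not pass. Bach2 fell between DIV0 and DIV28 by 3.14 on the log2 scale, while Jun, Junb, Fosl2, Atf3 and Mafg rose. Jun lost this call without DIV0 replicate 2 or DIV28 replicate 2, Atf3 without either DIV0 library or DIV28 replicate 2, at 3.31 to 5.09 over the fits, and Mafg without any 1 of the 4 libraries and with library totals, at 1.21 to 1.496.

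With TTX, 31 of 12992 genes (0.239%) were higher and 47 (0.362%) lower than in untreated DIV28. None of the 97 named genes that were tested passed in the edgeR fit, among them all 9 tested AP-1 genes, while 8 were higher and 7 lower at an unadjusted p under 0.05 and 9 passed in at least 1 alternative fit. Of all 11039 protein-coding genes of that edgeR fit, 378 were higher and 408 lower at an unadjusted p under 0.05. Fosl2 was at 2.30, 6.74 and 1.47 TPM with TTX, overlapping the untreated libraries, at a log2 change of −1.14 (SE 0.31, edgeR adjusted p = 0.259, n = 2 and 3). It passed with no filter on low counts and without TTX replicate 2, at −1.43 in the latter, and in no other of the 12 alternative fits, which ran from −1.43 to −0.81. Fos was at 0.51, 0 and 0.24 TPM with TTX, below both untreated libraries, and was too low to be tested there.

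**Figure D5:**
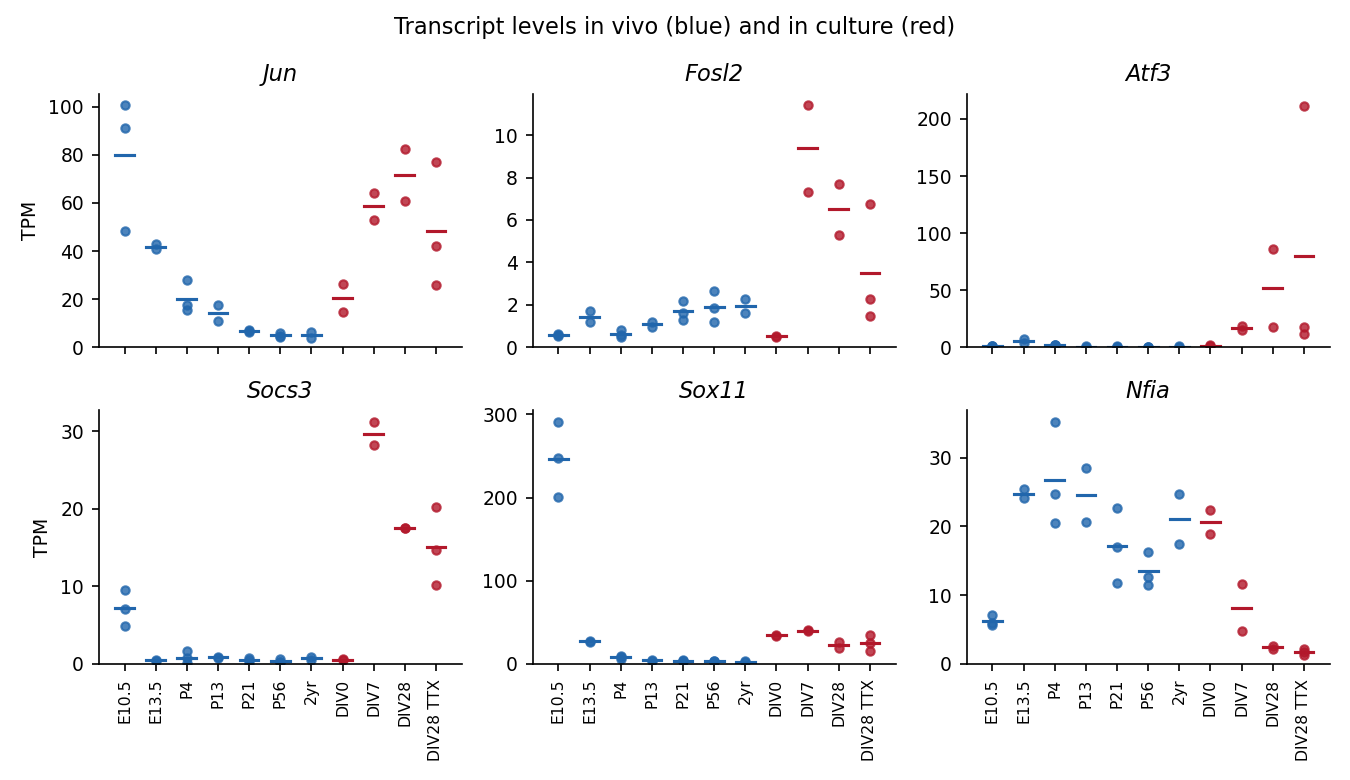
TPM (y axis) of Jun, Fosl2, Atf3, Socs3, Sox11 and Nfia in every library in vivo (blue) and in culture (red), by age or condition (x axis), with bars at the group mean. All but Nfia lie above P21 at DIV28, and Nfia lies below it.

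Of 13 genes of STAT and CNTF signalling, CNTF being a part of the culture medium, 6 were higher at DIV28 than at P21 and 1, Tyk2, lower, a call of −1.01 that 4 alternative fits lost. Socs3, a STAT target that dampens the receptor, was at 17.5 and 17.5 TPM at DIV28, 31.2 and 28.2 at DIV7, 0.61 and 0.53 at DIV0 and 0.16, 0.56 and 0.73 at P21. The log2 change was 6.52 against P21 (SE 0.42, edgeR adjusted p = 1.89e-10) and 5.41 against DIV0 (SE 0.35, edgeR adjusted p = 3.21e-06), with no overlap in either. Lifr, a receptor chain shared by CNTF and LIF and the gene of the list with the most members, 13, was at 29.4 and 35.7 TPM at DIV28 and 13.1, 13.9 and 16.5 at P21, a log2 change of 2.00 (SE 0.15). Stat3 was higher than at P21 by 1.48 in the fit (SE 0.25), but its TPM of 29.0 and 24.4 at DIV28 lay within or below the 26.3 to 39.8 at P21. Against DIV0, 7 of 13 were higher and none lower. Of the higher genes Stat5b lost its call in 5 of 12 alternative fits against P21 and in 8 of 11 against DIV0, Il6st in 5 of 11 against DIV0 and Bcl3 without DIV28 replicate 1 against P21.

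RUNX genes were looked at after the motif shares were known. Runx1 was at 2.65 and 3.49 TPM at DIV28 and 0.61, 0.68 and 0.72 at P21, higher by 3.07 (SE 0.29, edgeR adjusted p = 2.93e-08). Cbfb, the shared partner of RUNX proteins, was at 23.4 and 32.5 TPM at DIV28 and 1.94, 1.97 and 2.88 at P21, higher by 4.07 (SE 0.30). Runx2 did not differ beyond the limit, at 1.83 and 1.44 TPM against 2.71 to 6.41.

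RNA of NFI genes, whose proteins are factors of neuronal and glial maturation, was mostly lower at DIV28. Protein was not measured here, and the study reported robust NFIA and NFIB staining in DIV28 motor neurons. Of 4 tested against P21, 3 were lower and none higher. Nfia was at 2.22 and 2.65 TPM at DIV28, 18.9 and 22.4 at DIV0 and 11.7, 17.1 and 22.7 at P21, and fell by 2.55 against P21 (SE 0.33, edgeR adjusted p = 1.63e-06). Nfib, with 12 members, was at 0.19 and 0.43 TPM at DIV28 and 17.0, 22.1 and 22.3 at P21, and fell by 4.80 (SE 0.41). Nfix fell by 2.01, and Nfic, at 3.28 and 4.93 TPM against 7.27 to 9.11, did not pass. Of the 30 Hox genes tested, 16 were lower at DIV28 than at P21 and 2 higher.

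Of the 13 axon injury genes tested against P21, 11 were higher and none lower, with a median log2 change of 3.31. The list summed to 449 and 516 TPM at DIV28 and 62.7 to 80.5 at P21, and to 401 to 769 at E10.5 and 449 to 523 at E13.5, so that its DIV28 level was within the embryonic range. Sox11 was at 19.6 and 26.7 TPM at DIV28, 35.1 and 34.2 at DIV0 and 3.74, 4 and 4.50 at P21, higher by 3.31 against P21 (SE 0.20, edgeR adjusted p = 6.21e-11) and without a difference that passed against DIV0. Gap43, a growth cone protein, was at 38.5 and 69.3 TPM at DIV28 and 3.01, 3.88 and 4.35 at P21, higher by 4.65 (SE 0.51). Klf6, a zinc finger factor of axon growth with 24 members, was at 12.1 and 15.6 TPM against 2.86, 3.73 and 3.86, higher by 3.08 (SE 0.21). Gadd45a was higher by 4.52 and Gal, the neuropeptide galanin, by 6.49. Sprr1a, an injury-induced protein of growing axons, was at 131 and 60.6 TPM at DIV28 and had 1 count in all at P21, which permits no fold. Npy, with 12 members, was at 0.18 and 1.62 TPM at DIV28 and 0, 0.71 and 0.78 at P21 and did not pass, so many nearby members did not always go with a difference in the gene.

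Of the 20 genes with the most members, 19 were tested, of which 8 were higher and 1 lower at DIV28 than at P21. All protein-coding genes gave 15.8% higher and 11.2% lower, and those with 11 or more members 23.8% and 18.8%. Chrm3 was at 8.50 and 8.04 TPM at DIV28, 65.2 and 54.2 at DIV7, 1.56 and 0.60 at DIV0 and 0.97, 1.25 and 1.35 at P21, higher by 3.93 against P21 (SE 0.31) and by 4.63 against DIV0 (SE 0.40). Glis3, a zinc finger factor with 28 members, was at 13.9 and 11.6 TPM at DIV28, 75.5 and 58.1 at DIV7, 0.12 and 0.09 at DIV0 and 2.07, 2.62 and 5.32 at P21, higher by 3.18 (SE 0.28) and 8.44 (SE 0.43). Both were higher at DIV7 than at DIV28 in each library. Sdk1 was higher than at P21 by 3.24, Ywhaq by 1.61 and Lpp by 1.29, and Lpp lost its call without DIV28 replicate 2, without P21 replicate 1 and without TMM factors. Cntnap2, an adhesion protein of myelinated axons with 29 members, was lower with a log2 change of −1.18 (SE 0.29), and lost its call in each of the 5 fits without 1 library and with the replicate block. Auts2 and Nrxn3 did not differ from P21 beyond the limit, at log2 changes of 0.19 and 0.39. Against DIV0, 8 of the 19 tested were higher and 1, Auts2, lower. There all protein-coding genes gave 11.8% higher and 5.82% lower, and those with 11 or more members 25.6% and 12.2%.

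Of the genes nearest the strongest members, Nek7 was at 5.03 and 6.41 TPM at DIV28, 0.17 and 0.25 at DIV0 and 1.34, 1.93 and 2.05 at P21, higher by 2.65 (SE 0.25) and by 5.202 (SE 0.37). Prdm1 was at 4.93 and 4.17 TPM at DIV28, 0.17 and 0.02 at DIV0 and 0 to 0.06 at P21, where its 2 counts in all permit no fold, and was higher than at DIV0 by 5.76 (SE 0.50). Kdm6b was at 4.23 and 8.75 TPM at DIV28 and 19.3 and 24.1 at DIV0 and fell by 2.22 (SE 0.40), a call lost without DIV0 replicate 2 or either DIV28 library. Tmem123 did not pass in either comparison. Clca3a2 was at 3.42 and 7.92 TPM at DIV28, 0 at DIV0 and 0.61 to 0.95 at P21, higher than at P21 by 4.72 (SE 0.62). Fam217a had no count at DIV28, and Prl2c5, of a family of near-identical copies, was listed at 0 in all groups compared.

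Over all 12907 protein-coding genes tested against P21, genes with more members were more often called in either direction. Among genes with no member 13.47% were higher and 8.79% lower at DIV28, among those with 3 to 5 members 18.5% and 13.6%, and among the 421 with 11 or more 23.8% and 18.8%, where all protein-coding genes gave 15.8% and 11.2%. Against DIV0, 7.11% of genes without a member were higher and 25.6% of the 394 with 11 or more, where all gave 11.8%, and the shares of lower genes were 4.17% and 12.2%. Genes with many members also had many comparison regions, with a median of 40 regions of both kinds against 2. With library totals, 16.4% of the genes with 11 or more members were higher than at P21 and 24.7% lower, against 8.02% and 13.1% of those without.

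The share of members among the regions of a gene gave another order. Among 3236 protein-coding genes with at least 10 reproducible regions, those with under 10% members were higher at DIV28 than at P21 in 11.7% of cases and those with 40% or more in 26.6%, where all gave 18.7%. The shares of lower genes were 14.6% and 14.8% in these classes. With library totals the higher shares were 8.37% and 19.8% and the lower shares 21.1% and 19.6%. Against DIV0, 15.9% and 25.4% were higher and 6.92% and 8.91% lower. With TTX the 394 genes with 11 or more members held 4 higher (1.02%) and 0 lower calls by edgeR, against 0.245% and 0.399% of all protein-coding genes. At an unadjusted edgeR p under 0.05, 52 of the 394 were higher and 14 lower, against 378 and 408 of all 11039 protein-coding genes. By DESeq2, 3.30% of the genes with 11 or more members were higher and none lower, against 0.330% and 0.454% of genes without a member. With no filter on low counts the higher shares were 5.53% and 0.419%. These shares are a description over genes, which are not independent of each other.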

How the data were processed

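ATAC-seq was measured in 22 libraries (14 in vivo, 8 in culture) and RNA-seq in 28, of which 27 were grouped by their labels and 1, whose title and file name disagree, was left out. The authors trimmed reads with Trim Galore and cutadapt 0.6.2, aligned ATAC-seq reads to mm10 with BWA 0.7.1.7 and SAMtools 1.7.2 and called peaks per library with MACS2 2.2.7.1 at a p limit of 0.01, with versions from the submitters' processing notes. The deposited peak lists give a fold enrichment (a ratio of signal to local background), −log10 p, −log10 q and a summit offset for each peak. The authors counted RNA reads with RSEM 1.3.0 and STAR 2.5.2b, and the deposited files hold expected counts and TPM per gene. Reads behind the peak lists are unknown, which leaves the precision of each list unknown. RNA totals ran from 2704682 to 21823500 expected counts, with 4892825 and 21823500 at DIV28.

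From there, duplicate peak intervals were merged and overlaps of at least 1 bp taken, and the overlap code was checked against bedtools 2.31.1 on simulated intervals. Letters of 25 motifs were searched on both strands in the 200 bp around each summit and in windows shifted by 1000 bp to both sides, in GRCm38, with pysam 0.24.0. Regions were placed by GENCODE vM21 basic, with distal meaning over 2000 bp from a start site. Expected counts were rounded, genes with a CPM of at least 5 in all replicates of a group kept, and edgeR 4.0.16 quasi-likelihood fits made with TMM factors in R 4.3.3, over all libraries except DIV28 TTX against P21 and over all culture libraries for both other comparisons. Calls needed p below 0.001 and groups 2-fold or more apart, and adjusted values are Benjamini-Hochberg. DESeq2 1.42.0 was an alternative. Python 3.11.15, numpy 2.4.6, pandas 2.3.3, scipy 1.17.1 and matplotlib 3.10.9 were used. Overlaps, motif counts and RNA calls were tested on simulated data.

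Named regions were the 10 members with the highest −log10 p and the 4 highest of each timing class, of which the 3, 3 and 1 highest by class are printed. Named genes were the 20 with the most members, the genes nearest the named regions, and genes of the AP-1, NFI, TEAD and YAP and STAT lists or with at least 5 members in another list. RUNX genes, and other genes given as cell type markers or axon injury genes, were chosen after values were seen. The members and lists were chosen with earlier results of these data known.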

Additional observations from a re-analysis of the deposited data

How the results depend on the processing

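The share of members with AP-1 letters was 63.9% with a −log10 q of at least 3, 62.3% with replicate 2 as the base, 48.8% in a window of 100 bp and 70.8% over the whole interval. Among alternatives chosen after seeing the data it was 70.5% for the 100000 highest intervals, which gave 20520 members, and 64.2% for members over 1000 bp from an in vivo peak. Leaving out DIV28 replicate 2 or the in vivo lists of one replicate number gave 56.5% to 62.2%. The number of members was 35427 to 72666 over lists left out, the highest without DIV28 replicate 2, where the DIV7 share was 16.7% and the TTX share 53.7%. Over lists left out, the ranges were 1.48% to 2.55% at DIV0, 16.7% to 28.4% at DIV7 and 53.7% to 74.3% with TTX, while the 100000 highest intervals gave 33.1% at DIV7 and 82.8% with TTX and a wider overlap, of at least 0.5 of the interval, 1.47% at DIV0. The distal share was 97.5% with a limit of 1000 bp and 87.6% with 5000 bp.

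Against P21, 3327 to 4324 genes were called without 1 library, against 4373. Between DIV0 and DIV28, 2249 genes were called, 3819 with no filter on low counts, and 1187 to 1703 without 1 library, with 1187 and 1200 without DIV0 replicate 1 or 2 and 1404 without DIV28 replicate 2. With TTX, 78 genes were called, 186 by DESeq2, 401 with no filter and 25 to 109 without 1 library, the lowest without DIV28 replicate 2. Of the TTX calls 39.7% were higher, against 60.2% by DESeq2 and 51.3% with library totals. The causes were not tested. With the replicate block the counts were 4281, 2555 and 85, within 1.5 times those without pairing, and Cntnap2 lost its call against P21. No source says that cultures of the same number at DIV28 and DIV28 TTX were paired, and their deviations from the group means correlated at 0.463 and 0.403. The ATAC-seq shares come from no test, and no block was fitted to them. Of 55 named genes called against P21, 46 were called in every fit, and of 56 between DIV0 and DIV28, 32. No named gene with a call reversed its direction, but the balance of calls turned. Against P21, 51.5% of calls were higher and 34.2% with library totals, and among genes with 11 or more members 23.8% were higher and 18.8% lower, against 16.4% and 24.7% with library totals. Without read depths, a missing peak cannot be told apart from one below the limit of its library.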
